A study of Mus musculus with 4 samples.

Results

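Ngfr, Prph, Mbp, S100b, Sox10, Gfra3, Ncam1 and L1cam are genes of Schwann cells and peripheral nerve. They were taken by name from RNA sequencing count files of mouse pancreatic duct cells, as 8 of the 52535 gene models that each file lists, and all 8 were found. In the libraries labelled Lats1/2 knockout, 6 of the 8 were lower than in wild type, while Mbp and Ncam1 did not pass the test. Of all tested genes, 20.2% passed as lower. Of the 6, S100b, Sox10 and Gfra3 had enough counts for the test in wild type alone and had to come out lower. The best supported falls were those of the p75 neurotrophin receptor Ngfr (11.5-fold) and the axonal intermediate filament Prph (8.97-fold).

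Schwann cells are the glia of peripheral nerves, and they wrap axons with or without a myelin sheath. They arise from the neural crest under the transcription factor SOX10 and depend on neuregulin signals from axons through the receptors ERBB2 and ERBB3. The pancreas receives sympathetic, parasympathetic and sensory fibres, and in the mouse a sheath of Schwann cells surrounds the islets. Neurotrophins (BDNF and relatives) and the GDNF family are secreted ligands that keep neurons alive and draw axons toward their targets, through NTRK receptors with NGFR and through RET with a GFRA co-receptor, respectively.

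All mice were C57BL/6 and the tissue was pancreas, with the cell type given as ductal. The wild-type group held 2 libraries (WT 1 and WT 2), and the other group held 2 libraries with the genotype Lats1fl/fl; Lats2fl/fl; Sox9-CreER (KO 1 and KO 2, titled Lats1/2 KO). CreER is a recombinase that works after tamoxifen and is driven here by Sox9, a gene of duct cells. LATS1 and LATS2 are the Hippo pathway kinases that restrain YAP and TAZ. The sources used here do not give the age of the mice, the time after induction, whether wild-type mice received tamoxifen, how ducts were isolated or whether replicates were separate animals. The p-values therefore measure the spread between these libraries, which may be technical.

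Library totals ran from 3566387 to 5925601 counts, so that a floor of 3 counts in 1 library stood at 0.486 to 0.824 CPM (counts scaled to library size, here by TMM). The targeted genes do not check the labels, because the counts cover whole gene models and floxed alleles may lose only some exons. Lats1 had levels of 50.8 and 65.6 CPM (wild type) against 70.0 and 79.2 CPM, and Lats2 of 114 and 102 against 163 and 121 CPM. Of 8 duct markers 6 were higher in the libraries labelled knockout, and all 8 had counts in every library. Of 13990 genes tested, 42.2% passed the test in either direction and 20.2% passed as lower, so a call is common in this comparison and the count of members called is read against those shares. Of the genes called, 52.1% were higher, or 39.4% with upper quartile scaling, which moved the median log2 change of all tested genes from -0.01 to -0.20.

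The stretches before the start sites of Ngfr, Prph and S100b are shown because these genes fell and RefSeq promoter sequence (GRCm38.p6) was at hand for them outside the gene model. Of the 8 genes, 4 matched that table, and both L1cam entries lie inside the L1cam model and are not shown. Sequences run 5′ to 3′ on the gene's strand, at chr11:95587736-95587948 (minus strand) for Ngfr, chr15:99054924-99055173 (plus) for Prph and chr10:76253586-76253835 (plus) for S100b. Capitals mark motif matches.
Ngfr: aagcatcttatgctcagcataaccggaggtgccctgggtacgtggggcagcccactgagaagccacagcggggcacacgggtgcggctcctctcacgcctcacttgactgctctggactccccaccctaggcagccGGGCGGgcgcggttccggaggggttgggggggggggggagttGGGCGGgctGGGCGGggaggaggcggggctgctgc
Prph: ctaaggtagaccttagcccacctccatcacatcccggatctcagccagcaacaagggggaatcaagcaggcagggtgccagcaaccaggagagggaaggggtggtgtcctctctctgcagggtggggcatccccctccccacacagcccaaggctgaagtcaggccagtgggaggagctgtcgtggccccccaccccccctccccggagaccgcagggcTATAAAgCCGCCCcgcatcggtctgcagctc
S100b: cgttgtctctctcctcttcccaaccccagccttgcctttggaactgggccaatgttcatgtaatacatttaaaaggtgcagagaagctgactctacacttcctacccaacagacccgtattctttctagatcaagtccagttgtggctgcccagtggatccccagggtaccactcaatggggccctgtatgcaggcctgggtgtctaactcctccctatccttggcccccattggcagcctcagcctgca
The 250 bases before each start were searched on both strands for the SOX core ACAAAG. They were also searched for the TEAD core GGAATG and for TGANTCA, the AP-1 site. The core promoter motifs searched were the TATA box, given as TATAAA, and the GC box, given as GGGCGG. Ngfr held 4 GC boxes, 3 of them in the stretch shown, and no TATA box. Prph held a TATA box that begins 31 bases before the start and a GC box on the other strand 24 bases before it, which do not overlap. S100b held none of the 5 motifs. No stretch of the 3 genes held the SOX, TEAD or AP-1 letters, which occur in 16.5%, 12.6% and 6.75% of the 32851 windows of the same length. TATA boxes occurred in 12.4% and GC boxes in 32.7% of those windows.

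Among the glial genes, Sox10 and S100b fell and Mbp did not pass. Sox10 (mm10, chromosome 15, 79154913 to 79164490), the transcription factor that specifies the Schwann lineage, had 62 and 19 counts in WT 1 and WT 2 and 4 and 12 in KO 1 and KO 2. These were 17.0 and 4.27 CPM in wild type against 0.805 and 1.94 CPM. Both knockout-labelled libraries were below both wild-type libraries, but WT 1 was 3.99 times WT 2. The fall was 7.33-fold, from 10.7 ± 9.03 to 1.37 ± 0.804 CPM (SD, n = 2), with a log2 change of -2.87 ± 0.78 SE (edgeR adjusted p = 0.0238). In bulk RNA, fewer cells of a type and less RNA per cell cannot be told apart, here and in all that follows. The call on Sox10 was lost when WT 1 (-1.57, edgeR adjusted p = 0.160), KO 1 (-2.43, 0.177) or KO 2 (-3.64, 0.0983) was left out.

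S100b (chromosome 10, 76253853 to 76261159), a calcium-binding protein used as a glial marker, had 25 and 12 counts in wild type and 3 and 7 in the libraries labelled knockout. Its levels were 6.87 and 2.70 CPM against 0.604 and 1.13 CPM, again with no overlap between groups and with WT 1 the higher wild-type library. S100b fell 5.18-fold, with a log2 change of -2.37 ± 0.68 SE (edgeR adjusted p = 0.0227). Its call was lost when WT 1 (-1.57, edgeR adjusted p = 0.239), KO 1 (-2.04, 0.148) or KO 2 (-2.89, 0.0814) was left out, and also by DESeq2 with all libraries (-2.40, DESeq2 adjusted p = 0.0857).

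Mbp (chromosome 18, 82475146 to 82585637), myelin basic protein, had the highest counts of the 8 genes and hardly moved. It had 299, 383, 364 and 482 counts in WT 1, WT 2, KO 1 and KO 2, or 82.2, 86.1, 73.3 and 78.0 CPM. The knockout-labelled libraries lay just under the wild-type ones, an order that 36.8% of all tested genes share. The log2 difference was -0.15 ± 0.16 SE (edgeR adjusted p = 0.482). The Mbp locus also produces Golli transcripts, which are known from lymphocytes and other cells outside myelin, and counts per gene model do not separate them from the myelin transcripts.

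**Figure D1:**
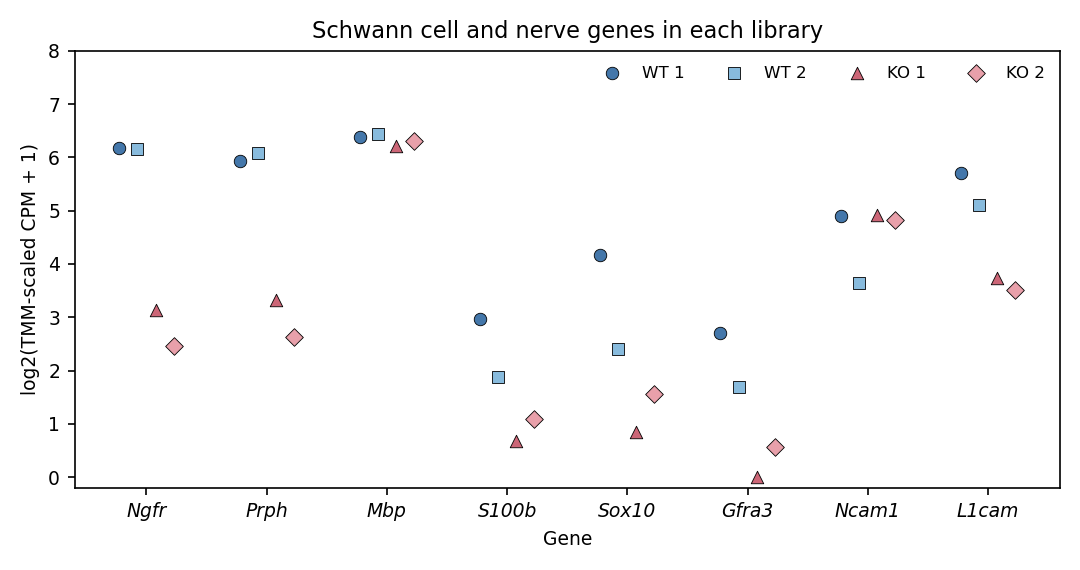
Levels of the 8 genes in each library, as log2 of the TMM-scaled CPM + 1 (vertical axis), 1 point per library and no error bars. Ngfr and Prph sit at means of 70.9 and 63.4 CPM in wild type and under 10 CPM in both libraries labelled knockout, while Mbp stays between 73.3 and 86.1 CPM in all 4.

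The 2 receptors fell. Ngfr (chromosome 11, 95568818 to 95587735), the p75 receptor that binds all neurotrophins and marks immature and non-myelinating Schwann cells, had 261 and 312 counts in wild type and 39 and 28 in the libraries labelled knockout. At 71.7 and 70.1 CPM the wild-type libraries were nearly equal, and the others stood at 7.85 and 4.53 CPM. Ngfr fell from 70.9 ± 1.13 to 6.19 ± 2.34 CPM (SD, n = 2), with a log2 change of -3.53 ± 0.29 SE (edgeR adjusted p = 5.28e-05). It passed with any 1 library left out, with log2 changes between -3.96 and -3.14.

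Gfra3 (chromosome 18, 34689903 to 34720387), the co-receptor through which artemin signals to RET, was scarce. It had 20 and 10 counts in wild type (5.50 and 2.25 CPM) and 0 and 3 in the libraries labelled knockout, where KO 2 stood at 0.486 CPM. With 3 counts in that group, the pooled wild-type level was 13.8 times the knockout-labelled one (95% exact binomial interval 4.29 to 70.6, counting error only). The log2 change was -3.72 ± 0.95 SE (edgeR adjusted p = 0.0138). It did not pass without KO 1 (-2.91, edgeR adjusted p = 0.0993), and without WT 1 the gene fell under the filter on low counts and was not tested. Without KO 2 it passed (edgeR adjusted p = 0.0302), but the remaining knockout-labelled library then had 0 counts, so that its fitted change (-7.06) depends on the prior count.

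Prph (chromosome 15, 99055174 to 99058978), peripherin, is the intermediate filament of peripheral axons and marks nerve fibres rather than glia. It had 219 and 296 counts in wild type and 45 and 32 in the libraries labelled knockout, or 60.2 and 66.5 CPM against 9.06 and 5.18 CPM. The wild-type libraries were close together, and the groups lay far apart. Prph fell from 63.4 ± 4.49 to 7.12 ± 2.74 CPM (SD, n = 2), with a log2 change of -3.17 ± 0.29 SE (edgeR adjusted p = 8.94e-05). With 1 library left out its log2 change ran from -3.60 to -2.77, and it passed each time.

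The 2 adhesion molecules differed. L1cam (chromosome X, 73853778 to 73896105), an immunoglobulin family protein of axons and non-myelinating Schwann cells, had 187 and 148 counts in wild type and 61 and 64 in the libraries labelled knockout. These were 51.4 and 33.3 CPM against 12.3 and 10.4 CPM, with no overlap. L1cam fell 3.73-fold, with a log2 change of -1.90 ± 0.28 SE (edgeR adjusted p = 0.000943), and passed with any 1 library left out (-2.18 to -1.54). It shares 100 exon bases on the same strand with Arhgap4, a neighbour that had 242, 332, 81 and 64 counts in WT 1, WT 2, KO 1 and KO 2 and fell 5.32-fold (edgeR adjusted p = 0.000193). The part of shared reads in the L1cam counts was not tested.

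Ncam1 (chromosome 9, 49502136 to 49798925), the neural cell adhesion molecule, is also known from islet endocrine cells. It had 105 and 51 counts in wild type and 145 and 168 in the libraries labelled knockout. The levels were 28.9 and 11.5 CPM against 29.2 and 27.2 CPM, so that WT 2 stood alone and the other 3 libraries were close together. The log2 difference was 0.50 ± 0.40 SE (edgeR adjusted p = 0.362). Without WT 1 it was higher by 1.31 (edgeR adjusted p = 0.0131), and without WT 2 the difference was -0.030 (edgeR adjusted p = 0.950), so its direction rests on which wild-type library is kept.

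**Figure D2:**
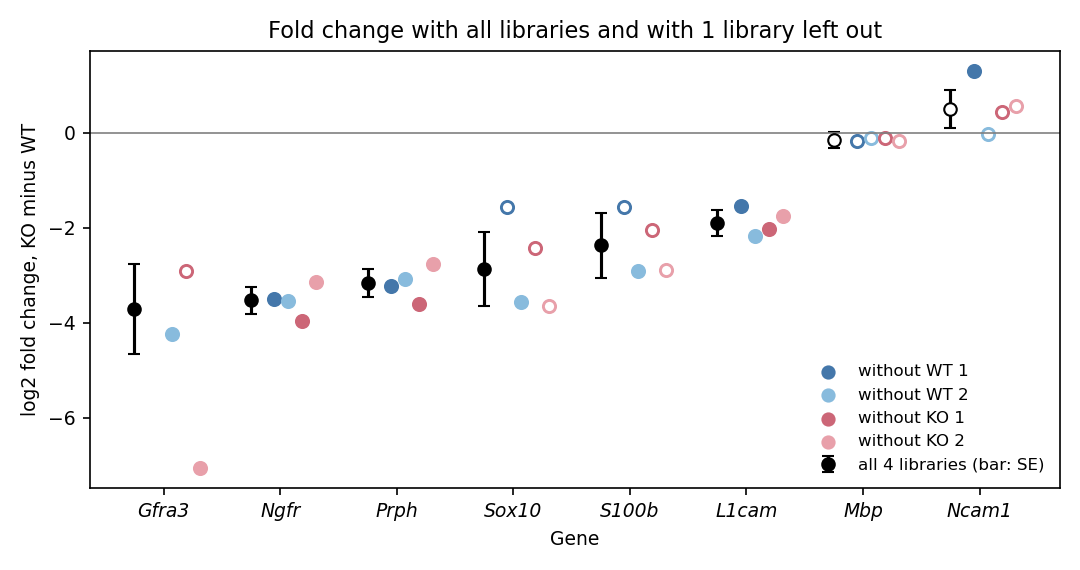
Log2 fold change (knockout-labelled minus wild-type, vertical axis) of each gene with all 4 libraries (black, bars are the SE of the fit) and with 1 library left out (coloured by the library left out). Filled points passed the edgeR test at an adjusted p of 0.05 and hollow points did not. Ngfr, Prph and L1cam stay filled throughout, and Ncam1 crosses 0.

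As a group, 6 of the 8 genes were lower and 0 higher, where 20.2% of all tested genes passed as lower and 22.0% as higher (edgeR, and 0 higher also at an unadjusted p under 0.05 and by DESeq2). The median log2 change of the 8 was -2.62, against -0.01 for all tested genes. For S100b, Sox10 and Gfra3, 0 of the libraries labelled knockout reached the minimum of the low-count filter, so these 3 entered the test through wild type alone and had to come out lower. The count of 6 and the median of the 8 are therefore a description and not support for a shared direction. Without WT 1, and also without KO 1, 3 of the 8 were lower, and without KO 2 it was 4. Without WT 1, 1 was higher (Ncam1).

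Per kilobase of exon (RPKM, from GENCODE M21 exon lengths), the order of levels in wild type was Prph, Ngfr, Mbp, L1cam, Sox10, S100b, Ncam1 and Gfra3. Prph had 30.1 and 33.3 RPKM, Ngfr 20.8 and 20.3, and Mbp 9.70 and 10.2, and these 3 did not overlap one another. L1cam (6.99 and 4.53) was below Mbp in both libraries. The values of L1cam overlapped those of Sox10 and S100b. Those of Sox10, S100b, Ncam1 and Gfra3 overlapped one another and ran from 1.13 to 5.58 RPKM. In the libraries labelled knockout Mbp was highest, at 8.65 and 9.21 RPKM. Prph (4.53 and 2.59) and Ncam1 (3.37 and 3.14) came next and overlapped, ahead of Ngfr (2.28 and 1.32) and L1cam (1.67 and 1.41), which overlapped too. S100b, Sox10 and Gfra3 were all under 0.8 RPKM there.

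The 2 wild-type libraries differed in some glial genes. The 4 Schwann cell markers Sox10, S100b, Cdh19 and Foxd3 were all higher in WT 1, and their summed level was 51.1 CPM there and 13.7 CPM in WT 2, a ratio of 3.73. The whole Schwann lineage list of 23 genes, which includes these 4, summed to 533 and 361 CPM, a ratio of 1.48, and 20 of the 23 were higher in WT 1. Its gene Fabp7, a fatty acid binding protein named after its values were seen, ran the other way, at 3.57 and 14.6 CPM. The 4 neuronal markers Prph, Tubb3, Elavl4 and Stmn2 summed to 139.9 and 131 CPM, a ratio of 1.07. Among the 8 genes, WT 1 was 3.99 times WT 2 for Sox10, 2.55 times for S100b, 2.52 times for Ncam1, 2.45 times for Gfra3 and 1.54 times for L1cam, against 1.02 for Ngfr, 0.955 for Mbp and 0.905 for Prph. In KO 1 and KO 2 the Schwann markers summed to 4.63 and 7.61 CPM and the neuronal ones to 21.5 and 16.0 CPM. The whole Schwann lineage list summed to 492 and 523 CPM there, which is not below both wild-type libraries. Each Schwann marker had counts in every library, and of the neuronal markers Elavl4 was at 0 in KO 1. Schwann and neuronal genes thus had counts in all 4 libraries labelled as duct cells. Some were at or under the floor of 3 counts in KO 1 and KO 2. Foxd3, which was not tested, had 3 and 1 counts there, and Elavl4 had 0 and 3.

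Genes of the Schwann lineage list moved in both directions. This list includes Sox10, S100b, Ngfr, Gfra3, Ncam1 and L1cam, and all of these but Ncam1 are among its lower genes. Its counts and median therefore repeat the values given above in part and are a description. Of 20 tested, 10 were lower and 5 higher, beside 20.2% lower and 22.0% higher over all tested genes. The median log2 change was -1.15, and 5 of the 10 lower genes passed the filter through wild type alone. Gfra3 and Ngfr had the largest falls of this list. The endothelin receptor Ednrb rose 4.42-fold, and the adhesion G protein-coupled receptor Adgrg6, which Schwann cells need to myelinate, rose 2.39-fold. The adhesion molecule Cadm4 rose 3.30-fold, a call lost when KO 1 or KO 2 was left out (edgeR adjusted p = 0.126 and 0.170), and its log2 change ran from 1.16 without WT 2 to 2.61 without WT 1. N-cadherin (Cdh2), which many cell types carry, rose 3.25-fold, a call lost in the same fits (edgeR adjusted p = 0.158 and 0.128), and its log2 change ran from 1.24 without WT 2 to 2.36 without WT 1. The other higher gene was the neuregulin receptor Erbb3. Cdh19, a cadherin of Schwann cell precursors, stood with Sox10 in its pattern, at 23.9, 4.94, 2.62 and 4.37 CPM in WT 1, WT 2, KO 1 and KO 2, and did not pass (edgeR adjusted p = 0.101). Leaving out WT 1, KO 1 or KO 2 left 3 lower genes each, and without KO 1 or KO 2 the higher genes numbered 3 and 2.

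Myelin genes passed in both directions, around the flat value of Mbp. Of 11 tested, 3 were lower and 3 higher, near the shares of all tested genes (20.2% lower and 22.0% higher). Their median log2 change was 0.09, and the counts are a description. Lower were the gap junction protein Gjb1 (8.28-fold), the axoglial adhesion protein Cadm3 (3.67-fold) and the myelin enzyme Cnp (3.23-fold). Cadm3 shares exon bases on the same strand with Ackr1, and the part of shared reads was not tested. Which cells the transcripts of these 3 genes came from was not tested either. Gjb1 had 94 and 81 counts in wild type and 16 and 13 in the libraries labelled knockout, so its groups did not overlap. The 3 lower calls held with each library left out. Higher were Mal (7.59-fold) and Pmp22 (2.69-fold), which epithelia also express, and the immediate early gene Egr2 (1.67-fold), which is induced in many cell types and also drives myelination. Egr2 did not pass with any 1 library left out (edgeR adjusted p = 0.0765 to 0.137), nor with upper quartile scaling (0.0927) or by DESeq2 (adjusted p = 0.115). Mal lost its call when KO 1 (edgeR adjusted p = 0.0715) or KO 2 (0.0778) was left out, and without either library 1 myelin gene was higher.

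Most tested genes of the axon and neuron list, which includes Prph, were lower. Of 23 tested, 21 were lower and 1 higher, beside 20.2% lower and 22.0% higher over all tested genes. The median log2 change was -3.22. Of the 21, 10 passed the filter through wild type alone and had to come out lower. The count and the median are therefore a description. Alpha-internexin (Ina), a neurofilament partner, had 51 counts in wild type and 1 in the libraries labelled knockout, a pooled ratio of 70.3 (95% exact binomial interval 12.1 to 2829.9). The microtubule regulator Stmn3 fell 30.8-fold. Of the noradrenergic genes of sympathetic neurons, which were singled out after their values were seen, Th (tyrosine hydroxylase), Dbh (dopamine beta-hydroxylase), Slc6a2 (the noradrenaline transporter) and Npy (neuropeptide Y) all fell. Their summed level was 209 and 218 CPM in wild type and 19.3 and 20.6 CPM in the libraries labelled knockout, and Dbh fell 12.4-fold, from 77.9 ± 2.08 to 6.24 ± 0.566 CPM (SD, n = 2). Map2, a microtubule protein, rose 1.69-fold, a call lost when WT 1 (edgeR adjusted p = 0.0867) or KO 2 (0.0772) was left out or with upper quartile scaling (0.0579), and 0 genes of this list were higher in those 3 fits. Leaving out 1 library gave 19 to 21 lower genes.

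**Figure D3:**
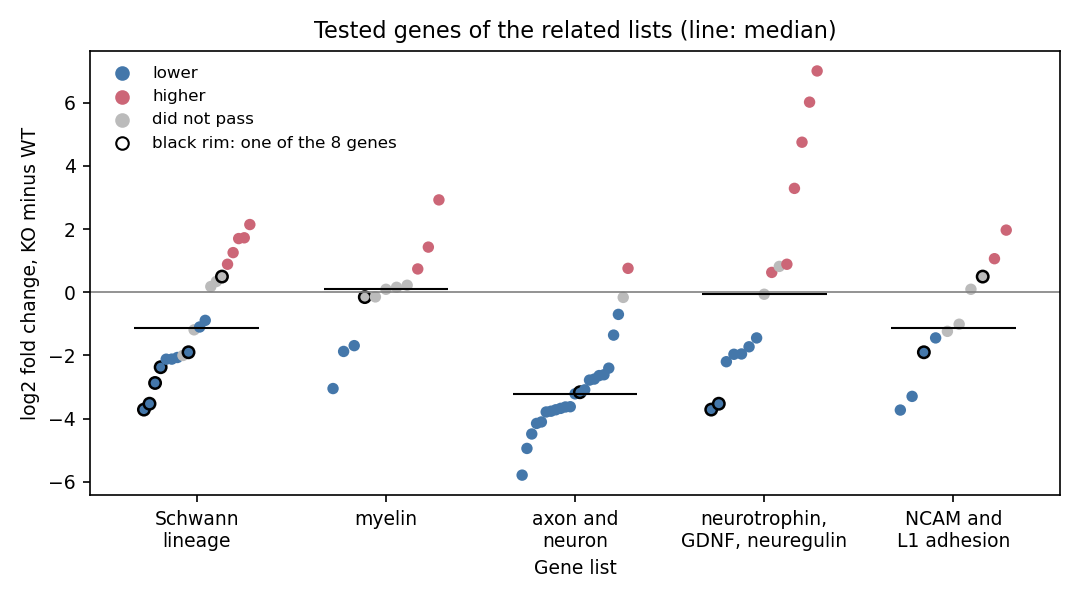
Log2 fold change (knockout-labelled minus wild-type, vertical axis) of every tested gene in 5 related lists, ordered by value within a list, with a line at the list's median and a black rim around the 8 genes. The axon and neuron list lies almost wholly below 0 (21 of 23 lower, beside 20.2% of all tested genes). The myelin and signalling lists reach both sides.

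Ngfr and Gfra3 are receptors of the neurotrophins and the GDNF family, and the genes of these families were compared next, with both included. Of 10 tested receptors and co-receptors of the neurotrophins, the GDNF family and the neuregulins, 7 were lower and 2 higher. Ngfr and Gfra3 are among the 7. Over all tested genes 20.2% passed as lower and 22.0% as higher. Of 5 tested ligands, 4 were higher and 0 lower (edgeR, with 0 lower also at an unadjusted p under 0.05 and by DESeq2). Of those 4 ligands Bdnf, Ntf5 and Gdnf entered the test through the libraries labelled knockout alone and had to come out higher, and on the receptor side Gfra3 entered through wild type alone. The counts by role are therefore a description. Gdnf, the ligand of GFRA1 and RET, had 0 and 1 counts in wild type and 113 and 97 in the libraries labelled knockout, a pooled ratio of 152 (95% exact binomial interval 27.1 to 6047). Bdnf, a ligand of NTRK2 and NGFR, had 1 and 3 counts in wild type and 185 and 186 in the libraries labelled knockout. Its log2 change was 6.02, and ran from 5.60 without WT 1 to 6.81 without WT 2. The groups of both ligands lay far apart.

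Ntf5, which encodes neurotrophin-4, another ligand of NGFR, had 1 count in wild type and 45 in the libraries labelled knockout, and lost its call when KO 2 was left out (edgeR adjusted p = 0.0503). Nrg1, the neuregulin that acts on Schwann cells through ERBB3, rose 9.78-fold. Artn, the ligand of GFRA3, had 4, 6, 1 and 5 counts in WT 1, WT 2, KO 1 and KO 2 and was not tested. Among the receptors, Ret, the signalling partner of GFRA3, fell 3.31-fold, a call lost when WT 2 (edgeR adjusted p = 0.0584) or KO 2 (0.0880) was left out. The receptors that were higher, Erbb3 (1.85-fold) and Sort1 (1.55-fold), are widely expressed in epithelia, and each lost its call with 3 of the 4 libraries left out in turn. Of these genes, Ntf5, Nrg1, Artn, Ret, Erbb3 and Sort1 were named after their values were seen. Over the whole list of 15 tested genes, 6 were higher and 7 lower, with Ngfr and Gfra3 among the lower. Without KO 2 the higher genes numbered 3.

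**Figure D4:**
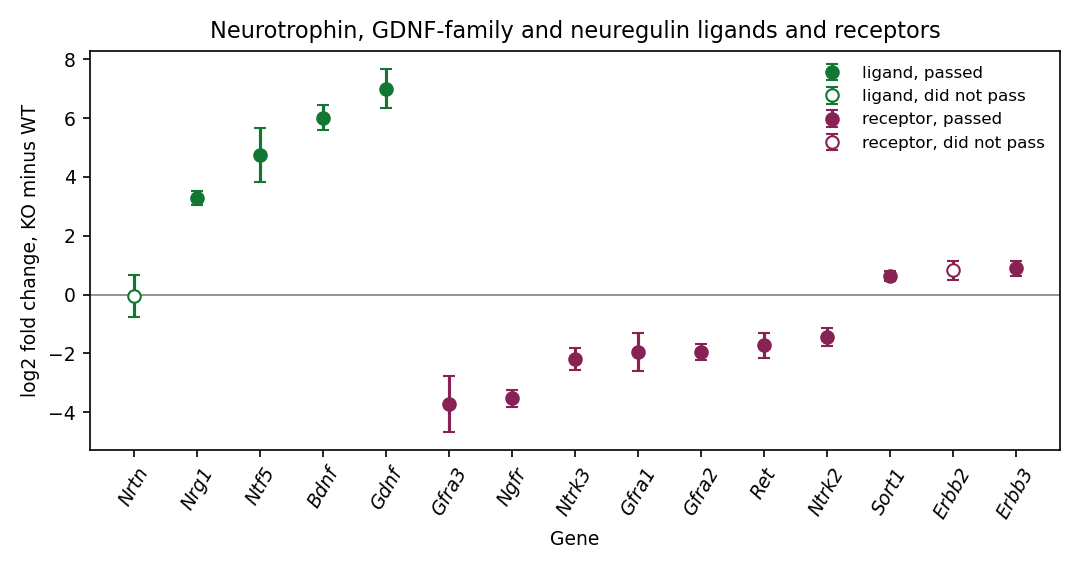
Log2 fold change (knockout-labelled minus wild-type, vertical axis, bars are the SE of the fit) of the 5 tested ligands (green) and 10 tested receptors (purple), with hollow points where the edgeR test did not pass. The 4 ligands that passed lie above 0 and the 7 lowest receptors, Gfra3 and Ngfr first, lie below it.

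Relatives of L1cam and Ncam1 moved in both directions. Of 10 tested genes of the NCAM, L1 and contactin families and their partners, 4 were lower and 2 higher, with a median log2 change of -1.13. Without L1cam and Ncam1 themselves, 3 of 8 were lower, 2 higher and 3 did not pass. Over all tested genes 20.2% passed as lower and 22.0% as higher, and with 8 genes these counts are a description. Ncam2 fell 13.3-fold and contactin-1 (Cntn1) 9.83-fold, next to L1cam and its close homologue Chl1 (2.72-fold). Ncam2 and Cntn1 passed the filter through wild type alone, and Cntn2 through the libraries labelled knockout alone. The call on Chl1 was lost when WT 1 (edgeR adjusted p = 0.123), KO 1 (0.0689) or KO 2 (0.0964) was left out. Contactin-2 (Cntn2) rose 3.91-fold and the cytoskeletal adaptor Epb41l3 2.09-fold. Cntn2 did not pass with any 1 library left out (edgeR adjusted p = 0.0556 to 0.140) or by DESeq2 (adjusted p = 0.132), and Epb41l3 lost its call when WT 2 (edgeR adjusted p = 0.0822), KO 1 (0.0741) or KO 2 (0.0527) was left out.

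Sox10 was compared with its relatives. Sox9, the SOX factor of duct cells and the driver of the Cre, rose 4.17-fold, opposite to Sox10, and Sox8 had 12, 9, 1 and 2 counts in WT 1, WT 2, KO 1 and KO 2 and was not tested. Of 6 SOX genes 2 were tested, and the 1 lower call, Sox10, was lost without WT 1, KO 1 or KO 2. In a list for the sheaths around nerve bundles, 7 of 11 tested genes were higher and 1 lower (median 1.21). Over all tested genes 22.0% passed as higher and 20.2% as lower. The largest rises of the sheath list were those of mesothelin (Msln, 40.8-fold) and Cdkn2b (10.3-fold). That list shares Sox9 with duct cells and Msln with mesothelium. Which cells its transcripts came from was not tested, and its counts are a description. The gene that was lower, Gli1, fell 4.12-fold, a call lost when WT 1 (edgeR adjusted p = 0.0502), KO 1 (0.0704) or KO 2 (0.0611) was left out.

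Markers of other cell types moved between the same groups, and their part in the values of the 8 genes was not tested. T and NK cell genes were lower in 8 of 8 tested. Their summed level was 967 and 968 CPM in wild type and 37.2 and 20.7 CPM in the libraries labelled knockout. Nkg7 was at 0 in KO 2, Klrb1c in KO 1, and Ncr1 in both. B cell genes were lower in 8 of 8, from 2475 and 2545 to 189 and 71.7 CPM. Islet genes, which bear on Ncam1 and L1cam, were lower in 8 of 13 tested, from 1304 and 2343 to 322 and 191 CPM. Slc30a8 was at 0 in KO 1 and Neurod1 in KO 1 and WT 1. The part of islet cells in the falls of the axon and neuron list was not tested either. Genes of follicular dendritic cells and lymphoid stroma, cells that can carry NGFR, were lower in 6 of 8 tested and higher in 1 (Clu), and the defining marker Cr2 went from 282 and 327 to 13 and 14 counts.

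Smooth muscle genes were lower in 7 of 7 (4740 and 3979 against 1632 and 911 CPM) and endothelial genes (Pecam1, Kdr, Cdh5, Tek and Vwf) in 5 of 6 (1231 and 1186 against 618 and 558 CPM). Acinar genes summed to 42458 and 76305 CPM in wild type and 150 and 3336 CPM in the libraries labelled knockout, where 1 of 7 tested, Amy2a5, was lower. Macrophage genes were higher in 8 of 8 (529 and 481 against 4703 and 3082 CPM). Fibroblast and stellate cell genes were higher in 6 of 9 and lower in 2 (Des and Thy1), and summed to 3059 and 2826 against 12224 and 7363 CPM. The duct list summed to 974 and 1289 against 7592 and 7932 CPM. Of the melanocyte genes, which bear on Sox10, Tyrp1, Dct and Mlana were at 0 in all 4 libraries, and Mitf, which macrophages and other cells also express, was the 1 higher gene. Adipocyte genes were higher in 2 of 3 tested (Adipoq and Cfd, both at 0 in wild type), and of 10 genes that respond to tissue dissociation 5 were lower (Jun, Egr1, Hspa1a, Hspa1b and Dnajb1) and 1 higher (Fosb).

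**Figure D5:**
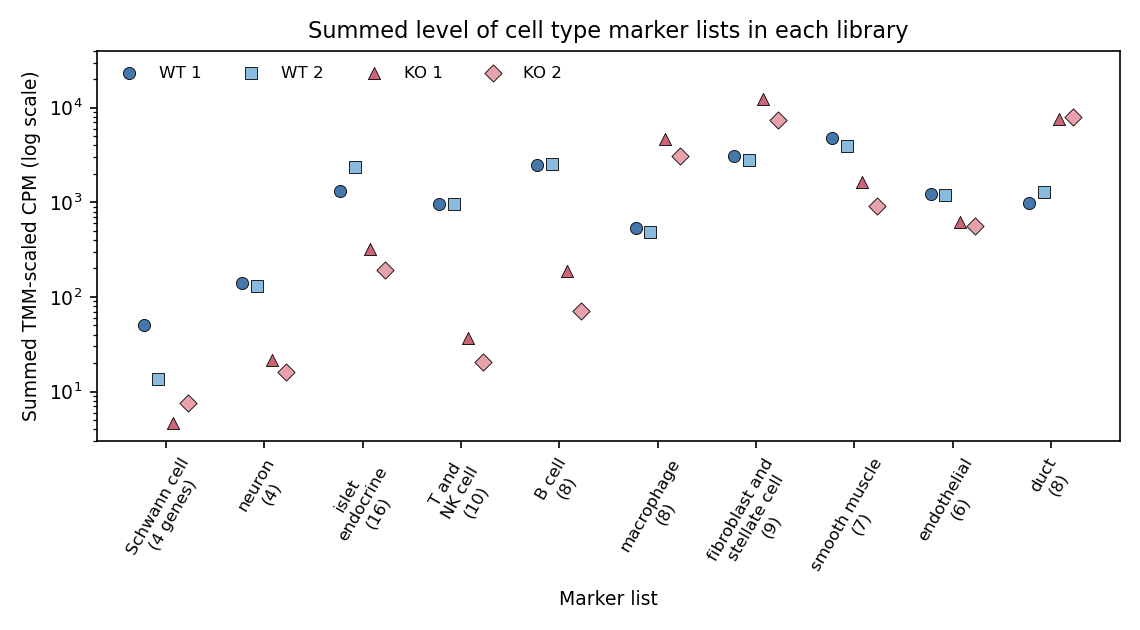
Summed TMM-scaled CPM (vertical log axis) of marker lists for 10 cell types in each library, 1 point per library, with the number of genes in parentheses. The Schwann sum is of the 4 markers Sox10, S100b, Cdh19 and Foxd3, and the whole Schwann lineage list, not drawn, is not lower in both libraries labelled knockout (492 and 523 against 533 and 361 CPM). These 4-marker Schwann sums and the neuron, islet, lymphocyte, smooth muscle and endothelial sums are lower in both, and macrophage, fibroblast and duct sums are higher.

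Outside these lists, the tested genes whose centred log2 CPM over the 4 libraries lay nearest to the mean profile of the 8 genes were Vwa1, G0s2, Stk32a, Tmem45b and Abca8a. Their Euclidean distances were 0.0890, 0.144, 0.148, 0.148 and 0.185 on the log2 scale. Vwa1 stood at 36.6, 22.7, 7.65 and 8.26 CPM in WT 1, WT 2, KO 1 and KO 2, and Abca8a at 90.7, 46.1, 16.3 and 16.5 CPM. With 4 libraries many genes have a similar profile, and the likeness is a description.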

How the data were processed

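RNA was sequenced from pancreatic duct cells in 4 libraries, 2 wild-type and 2 titled Lats1/2 KO, grouped by sample title. Libraries were made from total RNA (easy-BLUE extraction) with a strand-preserving SMARTer kit, per the labels' protocols. The deposited files hold raw counts per gene model, and per the submitters' processing notes the build was mm10 and the tools TopHat and edgeR. The sources used here do not give the counting program, its annotation or its use of strand.

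In R 4.3.3, edgeR 4.0.16 was used to filter the counts (filterByExpr, minimum count 10), to scale them by TMM and to run its robust quasi-likelihood test on all 4 libraries with genotype as the only term. There were 13990 tested genes and 2 residual degrees of freedom. P-values were adjusted by Benjamini-Hochberg over all tested genes, with a threshold of 0.05 and two-sided tests. The procedure was tested on simulated counts. Levels are TMM-scaled CPM and errors are SD with n = 2, or the SE of the fit for log2 changes. Groups with 1 to 3 counts are given as a ratio of pooled counts with a 95% exact binomial interval. Such intervals and floors cover counting error only. Exon lengths and overlaps come from GENCODE M21.

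The 8 genes, the related lists and the tests were chosen with earlier results of these data known. The text names the 8 genes, the 2 largest rises and falls past the threshold in each related list, every gene of a direction with 5 or fewer, where the text counts it, and the 5 nearest profiles. Some genes of the related lists are not reported here and were left out of every list count, median and sum, after their values had been seen. Alternatives were DESeq2 1.42.0, upper quartile scaling, no filter, each library left out and the replicate number as a block.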

Additional observations from a re-analysis of the deposited data

How the results depend on the processing

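Ngfr, Prph and L1cam passed and Mbp did not under every alternative run: DESeq2, upper quartile scaling, no filter, each library left out and the replicate block. Without 1 library, log2 changes ran from -2.91 to -1.57 for S100b, from -3.64 to -1.57 for Sox10, from -7.06 to -2.91 for Gfra3 and from -0.030 to 1.31 for Ncam1, which was the 1 gene to reverse (-0.030, without WT 2). With DESeq2 S100b stood at -2.40 and did not pass. The count of lower genes among the 8 was 3 to 6 with 1 library left out and 5 with DESeq2, and the count of higher genes 0 to 1. Of all 84 tested list genes, 43 were lower and 23 higher, with 31 to 43 lower and 12 to 21 higher when 1 library was left out. By DESeq2, 5 instead of 10 Schwann lineage genes were lower, and in the sheath list 0 instead of 1. With upper quartile scaling 2 sheath genes were lower and 0 axonal genes higher. The cause of these shifts was not tested.

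Libraries of the groups share replicate numbers, but nothing ties them to a shared animal or day. Deviations of same-numbered libraries from their group means correlated at 0.04 across genes. With the replicate number as a block, 6 of the 8 genes were lower and 0 higher, with log2 changes of -3.55 for Ngfr and -2.62 for Sox10. Low counts limit S100b, Sox10 and Gfra3, which had 3 to 16 counts in total in the libraries labelled knockout, and 2 libraries a group limit all.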
